A study of Magallana hongkongensis with 2 samples.

Results

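Selenocysteine lyase and the genes that make or use selenium-containing proteins were examined in gill tissue of the Hong Kong oyster (Crassostrea hongkongensis), an estuarine bivalve. The unigenes (assembled transcripts) were those whose description contains the letters "selen", with any description that also names thioredoxin left out; 22 of the 21226 unigenes listed in either library met this rule, and no description was left out for naming thioredoxin. All 22 had reads in both libraries, and all 22 passed the minimum of 20 reads over both. They carry 18 different descriptions, taken from the best protein match, which was the Pacific oyster (Crassostrea gigas) for 12 unigenes and 8 other animal species for the other 10. The descriptions do not say whether the oyster protein itself holds selenocysteine, and the deposited tables used here hold no sequences.

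Selenocysteine is an amino acid like cysteine with selenium in place of sulfur, and it sits in the active site of a small set of redox enzymes called selenoproteins. Cells build it on its own tRNA: a kinase adds phosphate to serine on this tRNA, selenide, water dikinase makes selenophosphate, a selenium transferase joins the products, and SECIS-binding protein directs the ribosome to read a UGA codon as selenocysteine. When selenoproteins are broken down, selenocysteine lyase frees the selenium for reuse. In vertebrates several selenoproteins lie in the endoplasmic reticulum (ER), where they take part in protein folding and the removal of misfolded proteins.

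Wild adult oysters were acclimated for 2 weeks, and 1 gill library was made for each of 2 groups. Per the labels, the control oysters stayed at 23 °C, while the heat-shocked oysters spent 1 h in water of 37 °C before going back to 23 °C. Gill of 10 oysters was pooled for the latter library; the number behind the former is not given. The control-labelled library held 3925349 uniquely mapped reads over 20824 unigenes, and the heat-shock-labelled library held 4173215 over 20751. With no replicates, every interval below covers counting error alone, no p-value can be given, and a difference is one between 2 libraries, not conditions. The labels are in doubt: heat shock protein 90 (Unigene0015010), a chaperone induced by heat, had 54239 reads in the control-labelled library and 3478 in the other, and heat shock protein 70 (Unigene0005548) had 44274 and 3488. The libraries are therefore named by their labels only. In pooled tissue, fewer cells of a type and less RNA per cell cannot be told apart.

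One of the 22 selenium-named unigenes, a selenocysteine lyase, was called lower in the heat-shock-labelled library, and 0 were called higher. A call needed a ratio of library-scaled reads of at least 2 either way and a 95% interval that excluded 1; the background was 3.25% lower and 3.97% higher calls over 17364 tested unigenes. At a ratio of at least 1.5, 3 of the 22 were lower and 0 higher, beside 5.71% and 10.7% of all tested unigenes. With edgeR's TMM factors, which lower every log2 ratio by 0.16, 2 of the 22 were called lower and 0 higher, beside 4.37% and 2.34% of all tested unigenes (758 lower and 406 higher, against 564 and 690 with library totals). The set was selected on the words of the descriptions, but as a topic it was chosen by the ratio of lyase Unigene0022327 between these libraries, so the counts are a description and carry no test. Together the 22 unigenes took 0.1635% of the reads of the control-labelled library (6419 reads) and 0.1615% of the other (6741 reads). Their median log2 ratio, heat shock label over control label, was 0.13, beside 0.17 for all tested unigenes.

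The levels of these unigenes spanned a wide range in both libraries. Scaled to length and library total (RPKM), 16 of 22 in the control-labelled library and 15 of 22 in the heat-shock-labelled library lay above the median tested unigene, which was at 13.1 and 14.45 RPKM. Selenoprotein M, a small thioredoxin-fold protein of the ER in mammals (Unigene0010656), had the highest level in the control-labelled library at 221.9 RPKM (exact Poisson 95% interval 203 to 242.5), above the non-selenium glutathione peroxidase (Unigene0023719) at 149 (137 to 162.5). In the heat-shock-labelled library the order of this pair was the other way round, at 167.5 RPKM (151 to 185) and 191 (178 to 206), with overlapping intervals. The lowest level in the control-labelled library was that of selenoprotein O-like (Unigene0022274) at 4.91 RPKM (3.001 to 7.59). In the heat-shock-labelled library it was that of the selenocysteine lyase Unigene0022327 at 2.55 RPKM (1.27 to 4.57). In the order of levels, the intervals of neighbours overlapped for 18 of 21 pairs in the control-labelled library and for 16 of 21 in the other, so most adjacent ranks were not separated at this depth.

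**Figure D1:**
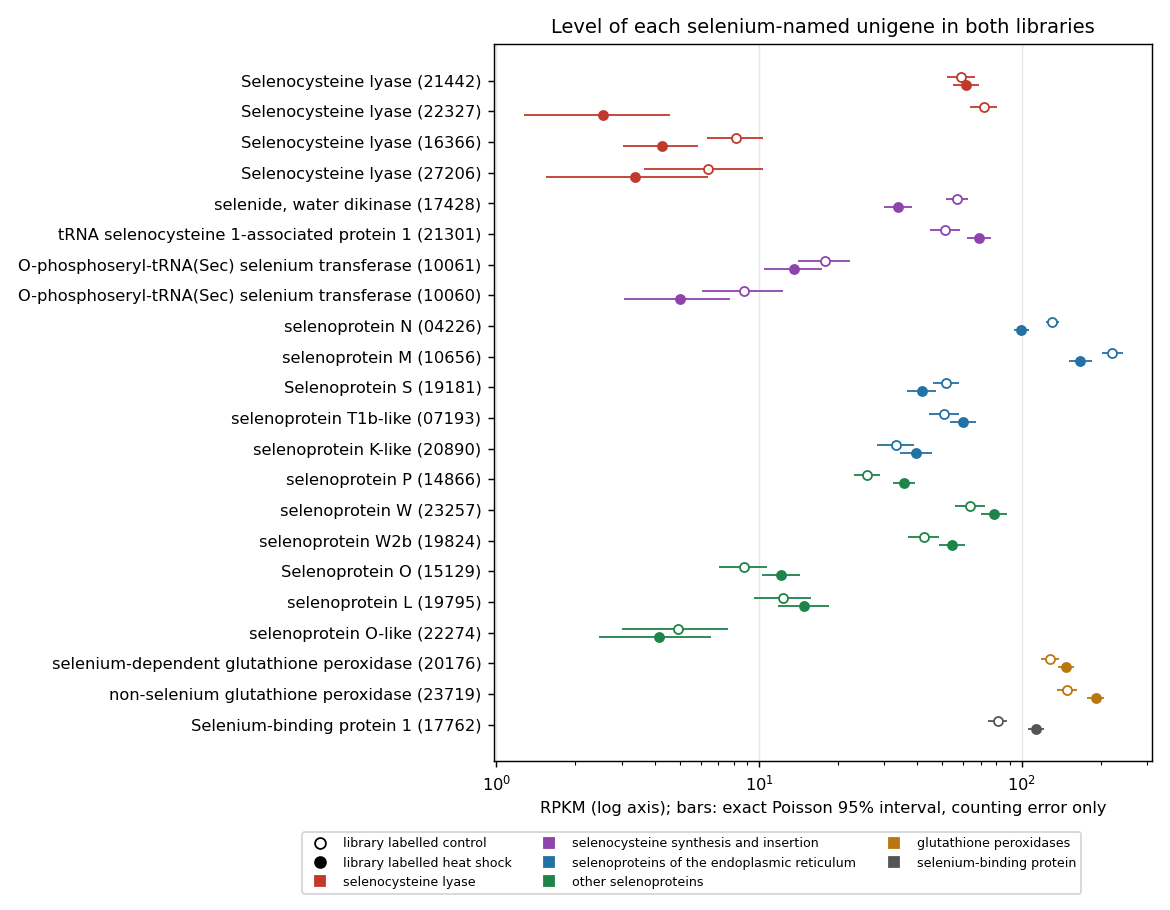
Level of each selenium-named unigene in RPKM (log axis), with the last 5 digits of its identifier; open circles are the control-labelled library, filled circles the heat-shock-labelled library, and bars the exact Poisson 95% interval. Selenocysteine lyase Unigene0022327 fell from the sixth highest place to the lowest, while with library totals the other unigenes stayed within a 2-fold difference.

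The unigenes described as selenocysteine lyase, which converts selenocysteine to alanine and releases selenium, differed widely among themselves. Unigene0022327 (1033 bases) had 291 reads in the control-labelled library and 11 in the heat-shock-labelled library, a ratio of 28.1 (95% interval 15.5 to 57.0). Only 13 of the 17364 tested unigenes had a smaller ratio of heat shock label to control label, and 11 of the 10503 with at least 100 reads. This ratio is the one that drew attention to the unigene and is given as a description.

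Unigene0021442 (1125 bases), the lyase unigene with most reads over both libraries, had 260 and 289 reads, a ratio of 1.05 towards the heat-shock-labelled library (0.881 to 1.24). The 2 lyase unigenes thus stood at similar levels in the control-labelled library, 71.8 and 58.9 RPKM, and at 2.55 and 61.6 RPKM in the other. Unigene0016366 (2125 bases) had 68 and 38 reads and was 1.90-fold higher in the control-labelled library (1.26 to 2.91). It fell short of the 2-fold rule with library totals and was the second call with TMM factors, at 2.13-fold (1.41 to 3.26). Unigene0027206 (639 bases) had 16 and 9 reads, 1.89-fold (0.786 to 4.85), so neither direction was detectable at this depth. It was the 1 lyase unigene to which the deposited annotation gave the selenocompound metabolism pathway, and the other 3 had no pathway.

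**Figure D2:**
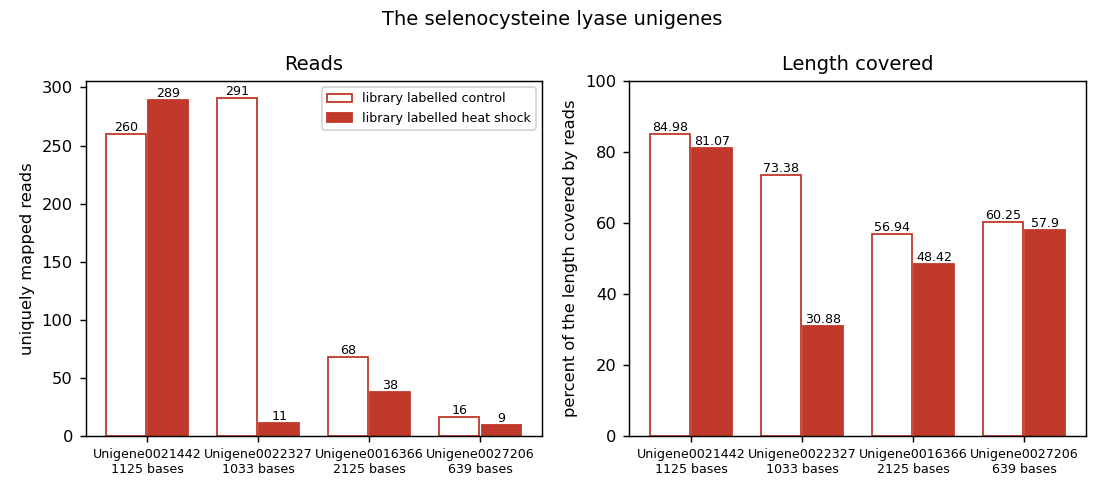
Uniquely mapped reads (left) and percent of the length covered by reads (right) for the 4 selenocysteine lyase unigenes, with open bars for the control-labelled library and filled bars for the heat-shock-labelled library. Unigene0022327 went from 291 to 11 reads, while Unigene0021442 had 260 and 289.

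The reads of Unigene0022327 were spread along it in the control-labelled library, covering 73.38% of its length, or 758 bases. The 11 reads of the heat-shock-labelled library covered 30.88%, or 319 bases; a single read covered a median of 49 bases in the 607 unigenes with 1 read there, so the 11 reads came from several places along the unigene. For Unigene0021442 the covered share was 84.98% and 81.07%. Over the 4 lyase unigenes together there were 635 and 347 reads, 1.95-fold more in the control-labelled library (1.70 to 2.22). Without Unigene0022327 the sums were 344 and 336 reads, a ratio of 1.09 (0.934 to 1.27), so the difference of the sum rested on that unigene. Whether the 4 are separate genes or pieces of 1 gene was not analysed here.

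None of the 4 selenium-named unigenes of the machinery that makes and inserts selenocysteine was called. With library totals 1 interval lay below a ratio of 1, 1 above, and 2 included 1. The descriptions of the kinase and SECIS-binding protein lack the letters, so both are given further below. There, 1 of 2 SECIS-binding unigenes was called higher, and no kinase unigene was called. Selenide, water dikinase (Unigene0017428), which makes the selenophosphate used as selenium donor, had 402 and 255 reads, 1.68-fold higher in the control-labelled library (1.43 to 1.97). O-phosphoseryl-tRNA(Sec) selenium transferase, which completes selenocysteine on its tRNA, had 2 unigenes. Unigene0010061 had 79 and 64 reads, 1.31-fold (0.932 to 1.85), and Unigene0010060 had 33 and 20 reads, 1.75-fold (0.977 to 3.23). Both intervals included 1, and both lay above 1 with TMM factors, at 1.47-fold (1.04 to 2.08) and 1.97-fold (1.10 to 3.61). Their summed reads were 112 and 84, 1.42-fold higher in the control-labelled library (1.06 to 1.90).

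The tRNA selenocysteine 1-associated protein 1 (Unigene0021301), which in mammals binds the selenocysteine tRNA, had 229 and 329 reads and was 1.35-fold higher in the heat-shock-labelled library (1.14 to 1.61). The summed reads of the 4 unigenes were 743 and 668, 1.18-fold higher in the control-labelled library (1.06 to 1.31). Without the dikinase the sum turned to 1.14-fold higher in the heat-shock-labelled library, so it carries no direction for the group.

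The 5 selenoproteins of the ER divided into 3 that were lower in the heat-shock-labelled library beyond counting error and a pair whose intervals included 1. Selenoprotein N (Unigene0004226), which in vertebrates guards calcium handling in the ER, was the selenium-named unigene with most reads, 1218 and 989, a ratio of 1.31 towards the control-labelled library (1.20 to 1.42). Selenoprotein M (Unigene0010656) had 486 and 390 reads, 1.32-fold (1.16 to 1.52). Selenoprotein S (Unigene0019181), which in mammals belongs to the complex that draws misfolded proteins out of the ER, had 292 and 250 reads, 1.24-fold (1.04 to 1.48). It was the 1 unigene among the 22 that the deposited annotation placed in protein processing in the endoplasmic reticulum.

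The other ER selenoproteins had ratios on the opposite side. Selenoprotein T1b-like (Unigene0007193), of a thioredoxin-fold family of the ER membrane, had 229 and 288 reads, 1.18-fold higher in the heat-shock-labelled library (0.991 to 1.41). Selenoprotein K-like (Unigene0020890), which in mammals helps attach palmitate to proteins at the ER membrane, had 156 and 198 reads, 1.19-fold (0.963 to 1.48). With TMM factors these stood at 1.06-fold (0.884 to 1.26) and 1.06-fold (0.859 to 1.32), and the other 3 kept their direction. None of the 5 was called, and all lay far from the ER chaperone described as 78kDa glucose regulated protein (Unigene0015183), at 24676 and 1361 reads.

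**Figure D3:**
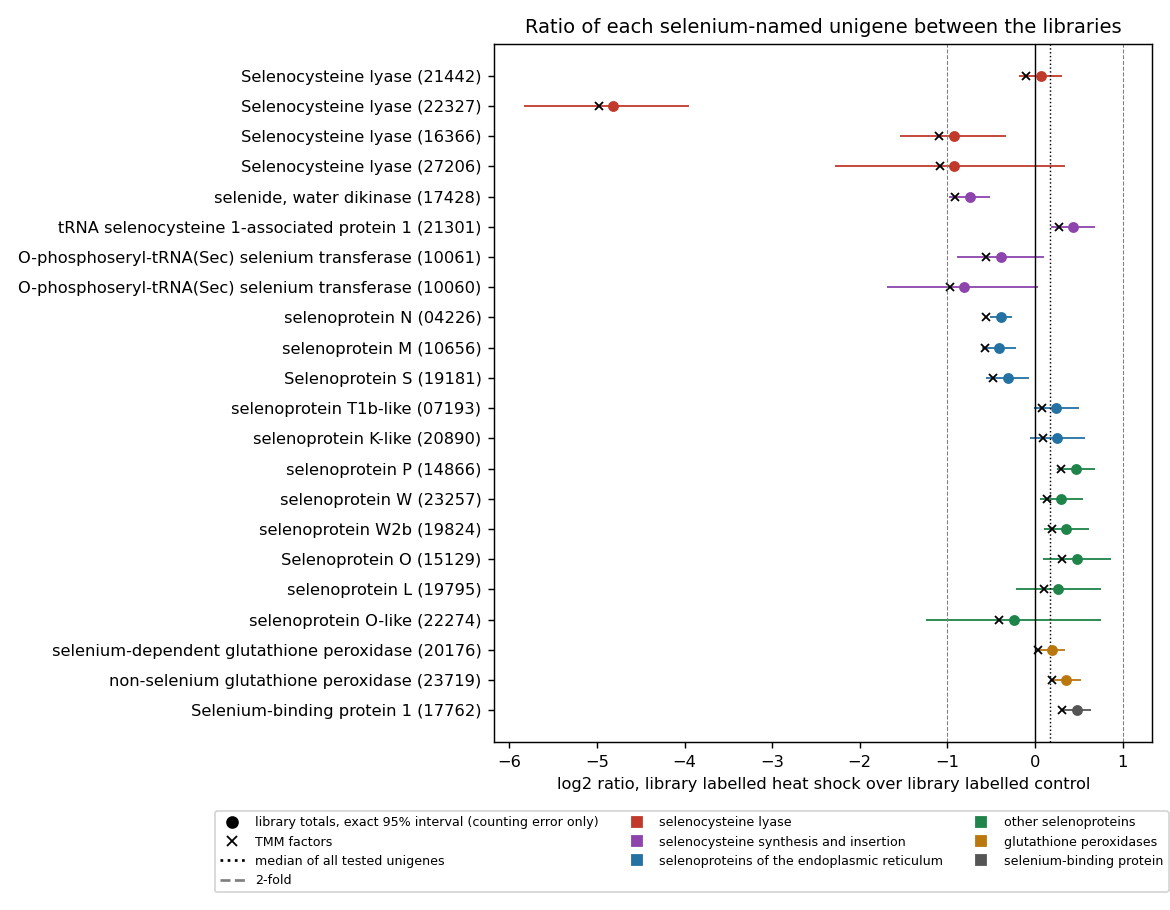
Log2 ratio of each selenium-named unigene, library labelled heat shock over library labelled control, with library totals (circles, exact 95% interval) and TMM factors (crosses); the dotted line is the median of all tested unigenes at 0.17, and dashed lines mark 2-fold. Lyase Unigene0022327 lies alone at the left; the dikinase and selenoproteins N, M and S lie left of 0, and selenoproteins P, W, W2b and O right of 0.

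The remaining selenoproteins had ratios towards the heat-shock-labelled library in 5 of 6 unigenes, and their median log2 ratio of 0.33 is to be read beside the 0.17 of all tested unigenes. Selenoprotein P (Unigene0014866), the plasma carrier of selenium in mammals, had 297 and 436 reads, 1.38-fold higher in the heat-shock-labelled library (1.19 to 1.61). Selenoprotein W, a small cytosolic thioredoxin-fold protein, had 235 and 308 reads (Unigene0023257), 1.23-fold (1.04 to 1.47). Selenoprotein W2b, a relative of it (Unigene0019824), had 222 and 302 reads, 1.28-fold (1.07 to 1.53).

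Selenoprotein O (Unigene0015129), a mitochondrial pseudokinase in mammals that attaches AMP to proteins, had 94 and 139 reads, 1.39-fold higher in the heat-shock-labelled library (1.06 to 1.83). Selenoprotein L (Unigene0019795), of a thioredoxin-fold family of aquatic animals, had 65 and 83 reads, 1.20-fold (0.858 to 1.69). Selenoprotein O-like (Unigene0022274) had 20 and 18 reads, 1.18-fold towards the control-labelled library (0.593 to 2.37). With library totals, 4 of these 6 intervals lay above 1, and with TMM factors 1 did, that of selenoprotein P at 1.23-fold (1.06 to 1.43).

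Both glutathione peroxidases named for selenium were abundant and slightly higher in the heat-shock-labelled library. The selenium-dependent enzyme, which reduces peroxides with glutathione (Unigene0020176), had 649 and 790 reads, 1.15-fold (1.03 to 1.27). With TMM factors it stood at 1.02-fold (0.920 to 1.13). The non-selenium glutathione peroxidase (Unigene0023719), a name used in mammals for peroxiredoxin 6, entered by the letters of its description although it is named for lacking selenium. It had 527 and 719 reads, 1.28-fold (1.15 to 1.44). Selenium-binding protein 1 (Unigene0017762), which in mammals oxidises methanethiol and is not a selenocysteine protein, had 551 and 816 reads. Its ratio of 1.39 (1.25 to 1.56) and the 1.39 of selenoprotein O were the largest towards the heat-shock-labelled library among the 22.

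By intervals alone, without the 2-fold rule, 6 of the 22 unigenes lay below a ratio of 1 and 8 above, beside 8.91% and 23.0% of all tested unigenes. With TMM factors, 8 lay below and 4 above, beside 14.8% and 12.3%. Intervals narrow with more reads, and the background was not matched for depth, so these counts and shares cannot be compared directly. The median listed unigene had 46 reads in the control-labelled library and 54 in the other, fewer than most of the 22. The 6 were lyases Unigene0022327 and Unigene0016366, the dikinase and selenoproteins N, M and S. Without Unigene0022327, by whose ratio the topic was chosen, 5 lay below with library totals. The additional ones with TMM factors were both selenium transferase unigenes. One unigene, lyase Unigene0021442, changed side between the scalings, from a log2 ratio of 0.06 to -0.10.

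**Figure D4:**
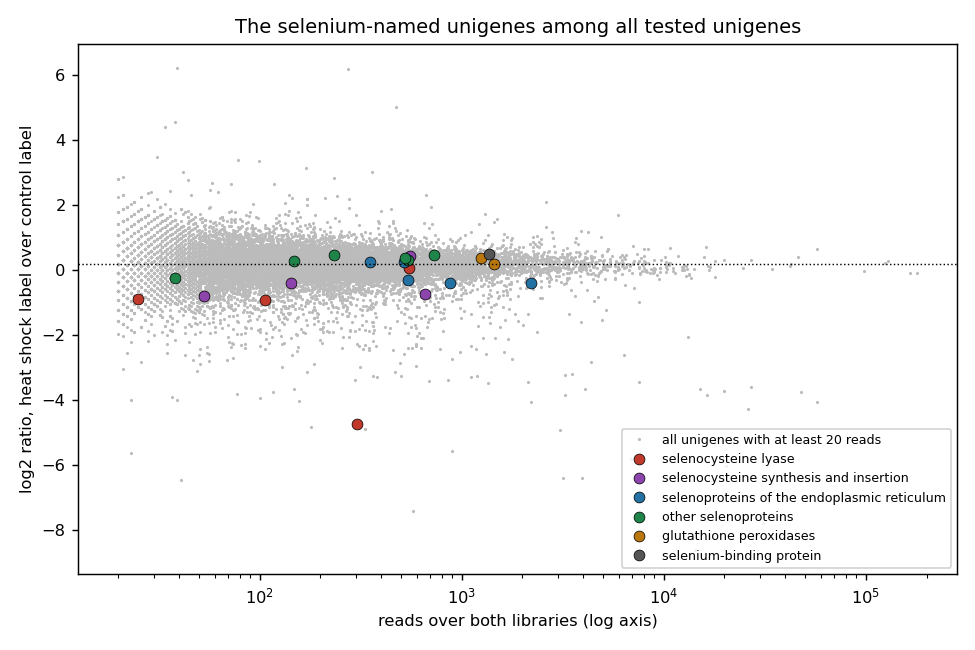
Log2 ratio (heat shock label over control label) against reads over both libraries (log axis) for all 17364 tested unigenes in grey, with the 22 selenium-named unigenes coloured by role. Apart from lyase Unigene0022327 at -4.75, the coloured points lie between -0.92 and 0.48, within the grey cloud.

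Properties that the rule left aside are given as a description. The lengths of the 22 unigenes ran from 558 to 2931 bases with a median of 1172, beside 1247 for all tested unigenes. The median share of the length covered by reads was 81.7% in the control-labelled library and 82.8% in the other, beside 74.9% and 78.3% for all tested unigenes. The deposited annotation gave a pathway to 7 of the 22, and the selenocompound metabolism pathway to 4 of these.

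The 6 described unigenes with at least 100 reads whose log2 ratio was nearest to the -4.75 of lyase Unigene0022327, over 2 libraries, are given as a description, since they were picked by that ratio. BAG family molecular chaperone regulator 4 (Unigene0032209), which releases clients from HSP70, had 323 and 11 reads, a log2 ratio of -4.90. Protein lethal(2)essential for life (Unigene0024975), related to small heat shock proteins in Drosophila, had 2980 and 104 reads, at -4.92. The ER chaperone 78kDa glucose regulated protein (Unigene0015183) stood at -4.27 and heat shock protein 90 (Unigene0015010) at -4.05. The other two were a short unigene described as a transmembrane helix receptor (Unigene0013477) with 173 and 6 reads, at -4.83, and C-type lectin domain family 4 member G (Unigene0029366) with 147 and 9 reads, at -4.05. Of these 6, the intervals of HSP90 and the glucose regulated protein were narrow because of their depth, whereas that of the lyase covered 15.5 to 57.0-fold.

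Genes of selenium and sulfur metabolism whose descriptions lack the letters were listed by 17 enzyme or protein names. They came to 52 unigenes, of which 43 had at least 20 reads. Of the 43, 2 were called higher in the heat-shock-labelled library and 0 lower, beside 3.97% and 3.25% of all tested unigenes. The median log2 ratio of the 43 was 0.04 beside 0.17 for all. The shorter of the called unigenes was described as SECIS-binding protein 2-like protein (Unigene0029552, 502 bases), with 8 and 23 reads, 2.70-fold higher (1.17 to 6.99). The longer unigene of the same description (Unigene0020061) had 33 and 30 reads, 1.17-fold towards the control-labelled library (0.692 to 1.98), so the pair gives no common direction. The other call was S-adenosylmethionine synthetase isoform type-1 (Unigene0007139), which makes the cell's methyl donor from methionine. It had 1561 and 3359 reads, 2.02-fold higher in the heat-shock-labelled library (1.91 to 2.15), and 1.81-fold with TMM factors, under the rule.

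Further enzymes of selenocysteine synthesis, or related to its enzymes or the lyase, had ratios in different directions. Of 5 unigenes of L-seryl-tRNA(Sec) kinase, which prepares serine on the selenocysteine tRNA, 4 were tested and none was called. The most abundant, Unigene0001456, had 182 and 150 reads, 1.29-fold higher in the control-labelled library (1.03 to 1.61). Unigene0001452 had 157 and 118, 1.41-fold (1.11 to 1.81), and was annotated to pathways such as insulin signaling, not to selenocompound metabolism. The intervals of the other 2 tested unigenes included 1. Of these, Unigene0010678 was the only kinase unigene placed in selenocompound metabolism. It had 14 and 20 reads, 1.344-fold towards the heat-shock-labelled library (0.6455 to 2.876). The cytoplasmic seryl-tRNA synthetase (Unigene0016519), which charges serine tRNAs, had 501 and 920 reads, 1.73-fold higher in the heat-shock-labelled library (1.55 to 1.93). Cysteine desulfurase (Unigene0017293), a mitochondrial relative of the lyase that takes sulfur from cysteine, had 234 and 303 reads, 1.22-fold towards the heat-shock-labelled library (1.02 to 1.45). Kynureninase (Unigene0022375), an enzyme of tryptophan breakdown that uses the same cofactor, had 45 and 48 reads, a ratio of 1.00 (0.654 to 1.54).

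Selenoprotein families that the letters do not catch were also mixed. Thioredoxin reductase 3, which keeps thioredoxin reduced, was 1.39-fold (Unigene0009184, 917 and 701 reads, 1.26 to 1.54) and 1.49-fold higher in the control-labelled library (Unigene0009185, 582 and 415 reads, 1.31 to 1.70). The mitochondrial thioredoxin reductase 2 (Unigene0019867) had 50 and 88 reads, 1.66-fold higher in the heat-shock-labelled library (1.16 to 2.39). Methionine-R-sulfoxide reductase B1, a selenoprotein in mammals that repairs oxidised methionine (Unigene0019032), had 41 and 73 reads, 1.68-fold higher there (1.13 to 2.52). Its mitochondrial relative B2 (Unigene0015058) had 134 and 125 reads, 1.14-fold towards the control-labelled library (0.886 to 1.47). Of the 6 tested methionine sulfoxide reductase unigenes, the interval of B1 alone lay above 1, and 5 included 1. The summed reads of all 7 such unigenes were 407 and 415, a ratio of 0.959 (0.8345 to 1.102), heat shock label over control label. Among 3 further glutathione peroxidases none was called, the most abundant being the phospholipid hydroperoxide enzyme (Unigene0003719) with 159 and 211 reads, 1.25-fold (1.01 to 1.54). Type I iodothyronine deiodinase (Unigene0023334), which removes iodine from thyroid hormones in vertebrates, had 2 and 5 reads, too few to give a ratio.

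The enzymes of the methionine cycle also handle selenomethionine. Adenosylhomocysteinase A (Unigene0018458), which splits the product of methylation, had 8575 and 11338 reads, 1.24-fold higher in the heat-shock-labelled library (1.21 to 1.28) and 1.11-fold with TMM factors. Methionine synthase (Unigene0013987), which remakes methionine, had 719 and 1537 reads, 2.01-fold higher there (1.84 to 2.20). It was the 1 call among the 14 unigenes that the deposited annotation places in selenocompound metabolism, beside 3.97% of all tested unigenes called higher. That list was taken after the data were seen. With TMM factors methionine synthase was not called, at 1.79-fold. Cystathionine beta-synthase (Unigene0017472, 255 and 259 reads) and gamma-lyase (Unigene0018199, 151 and 161 reads), which carry sulfur on to cysteine, had ratios of 0.955 (0.800 to 1.14) and 1.00 (0.798 to 1.26). The 4 selenium-named unigenes of that pathway had a median log2 ratio of -0.77, and the other 10 had 0.28. With library totals, 3 of the 4 intervals included 1. Of the other 10, 4 lay above 1, 2 below, and 4 included 1. This split rests on letters in the descriptions and is given as a description.

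**Figure D5:**
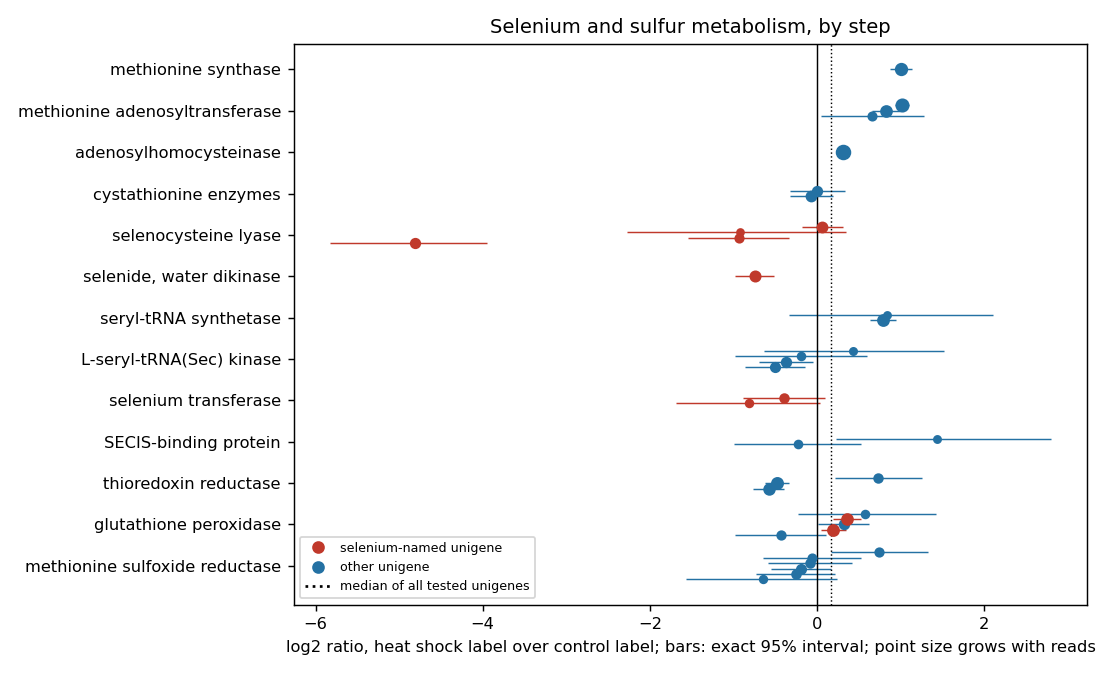
Log2 ratio (heat shock label over control label) of tested unigenes of selenium and sulfur metabolism by step, with exact 95% intervals; red marks selenium-named unigenes, blue the others, and the dotted line the median of all tested unigenes. Methionine synthase and adenosyltransferase lie right of the dotted line at up to 2-fold, while the dikinase and both selenium transferase unigenes lie left of 0.

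For the other names on the list, the most abundant unigenes had ratios, heat shock label over control label, within 1.5-fold of 1. These were Low-density lipoprotein receptor-related protein 8, a receptor for selenoprotein P in mammals (Unigene0006506, 1102 and 1205 reads, 1.03-fold), and Glutamate--cysteine ligase catalytic subunit, which starts glutathione synthesis (Unigene0015848, 386 and 513 reads, 1.25-fold). They also included mitochondrial glutathione reductase (Unigene0017186, 80 and 94 reads, 1.10-fold) and Molybdenum cofactor sulfurase (Unigene0020092, 19 and 29 reads, 1.44-fold with an interval of 0.778 to 2.71). Choline/ethanolaminephosphotransferase 1, a lipid enzyme of the family to which mammalian selenoprotein I belongs (Unigene0014387), had 143 and 108 reads, 1.41-fold higher in the control-labelled library (1.09 to 1.82). The less abundant unigene described as Ethanolaminephosphotransferase 1 (Unigene0013692) had 58 and 59 reads, a ratio of 0.9568 (0.6545 to 1.399). Both ratios lay on the side of the control-labelled library, but the interval of the less abundant unigene included 1.

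Markers of cell types differed between the libraries as well. The 102 unigenes described by ciliary names took 1.27% of the reads of the control-labelled library and 1.54% of the other, a ratio of 1.21 (1.20 to 1.23), and 17 muscle unigenes took 0.115% and 0.141%, a ratio of 1.22 (1.18 to 1.27). Photosystem and ribulose bisphosphate carboxylase, which would mark the food algae, matched 0 unigenes in either library; the 7 unigenes caught by the other algal words were matched to animals. The median log2 ratios of the tested ciliary and muscle unigenes were 0.32 and 0.32, beside 0.17 for all tested unigenes. With TMM factors these medians were 0.16 and 0.15, beside 0.004. The part of cell composition in the selenium-named ratios was not tested.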

How the data were processed

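Polyadenylated RNA from gill was sequenced, 1 library per group. The authors' deposited counts are uniquely mapped reads per unigene, whole numbers that are not normalized and that sum to the total in each file's header. The deposited RPKM equals the count scaled to length and library total, and the deposited coverage, in percent, is the share of the length covered by reads. The submitters' processing notes name CASAVA 1.4 and cutadapt 1.8.1 without their roles; aligner, assembly and filters are not given in the sources. Reads shared by near-identical unigenes are not among unique reads, so levels of such copies are uncertain.

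Unigenes missing from a file were taken as 0 reads there. Counts were scaled to library totals, and each ratio was given an exact conditional binomial (Clopper-Pearson) 95% interval with scipy 1.17.1. PCR copies are not independent molecules. Log2 ratios used a prior count of 0.5. No count model was run; edgeR 4.0.16 gave TMM factors only. The call rule was tested on counts simulated with counting error alone, so that test says nothing about the spread between oysters. Alternatives were TMM factors, the median of ratios, other minimums of reads, ratio thresholds and intervals, a prior count of 5, and sums over unigenes of the same description. The unigenes, lists and rules were chosen with earlier results of these data known. Named were the 22 unigenes, the most abundant and the called unigenes of each related name, and the 6 nearest in ratio to Unigene0022327. Added after their values were seen were Unigene0001452, Unigene0010678, Unigene0013692, Unigene0020061, Unigene0009185, Unigene0019867, Unigene0019032 and Unigene0018199. Myomegalin, caught by the word megalin, was left out after the data were seen.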

Additional observations from a re-analysis of the deposited data

How the results depend on the processing

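Depth limits the unigenes with few reads, and no replicate measures the spread between oysters. No paired analysis was possible because each group has 1 library. The count of selenium-named unigenes called lower was 1 with no minimum of reads, with at least 100 reads, with a ratio of at least 4, with a stricter interval, without the non-selenium peroxidase and selenium-binding protein 1 (added after the data were seen), and without matches to species other than animals, of which there were none. It was 2 with TMM factors, 2 with the median of ratios and 3 with a ratio of at least 1.5, the third being the dikinase. In every setting 0 were called higher. Unigene0022327, whose ratio led to the choice of topic, was called in every setting, so the steady count carries no weight for the set. The share of all unigenes called was not taken at the other minimums of reads, at a ratio of at least 4 or with the stricter interval. Calls higher among related genes were 1 with TMM factors and 1 with the median of ratios, the pathway list had 0 and 0, and all unigenes had 406 and 405.

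The median log2 ratio of the 22 was -0.03 with TMM factors, -0.04 with the median of ratios, 0.13 with a prior count of 5 and 0.24 with at least 100 reads. The ratio of summed reads, heat shock label over control label, moved with TMM factors and the median of ratios as follows. It was 0.755 and 0.753 for selenocysteine synthesis, 0.746 and 0.744 for the ER selenoproteins, and 1.16 and 1.15 for the other selenoproteins. It was 1.08 and 1.07 for the glutathione peroxidases and 1.24 and 1.24 for selenium-binding protein 1. Without the unigene with most reads it was 0.146 for the lyases, 1.14 for synthesis and 0.911 for the ER selenoproteins; without Unigene0022327 it was 0.919 for the lyases. The scaling itself lowers every ratio alike. Summing unigenes of the same description gave the lyases 0.514. Of the 22 ratios, 4 moved beyond their own interval with TMM factors.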

Other observations

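The rest of the deposited selenocompound metabolism pathway holds enzymes that handle sulfur and selenium analogs alike, chosen after the data were seen. Cytoplasmic methionyl-tRNA synthetase (Unigene0014017), which charges methionine tRNAs, had 403 and 613 reads in the control-labelled and heat-shock-labelled libraries, 1.43-fold higher in the latter (1.26 to 1.63). Its mitochondrial counterpart (Unigene0019015) had 11 and 13 reads, 1.11-fold with an interval of 0.459 to 2.74. Kynurenine--oxoglutarate transaminase 3 (Unigene0016454), which in mammals also cleaves selenium-carbon bonds of amino acids, had 91 and 132 reads, 1.36-fold towards the heat-shock-labelled library (1.04 to 1.802). Bifunctional 3'-phosphoadenosine 5'-phosphosulfate synthetase (Unigene0015185), which activates sulfate, had 378 and 430 reads, 1.07-fold (0.930 to 1.23).

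Low-density lipoprotein receptor-related protein 2, a kidney receptor for selenoprotein P in mammals, was spread over several unigenes, also chosen after the data were seen. Its most abundant, Unigene0024851 (803 bases), had 198 and 278 reads, 1.32-fold towards the heat-shock-labelled library (1.10 to 1.59), and Unigene0028957 (535 bases) had 98 and 162, 1.56-fold (1.20 to 2.02). With TMM factors the interval of Unigene0024851 included 1 (0.9785 to 1.421). The remaining tested unigenes of this name had ratios, heat shock label over control label, on both sides of 1. These were 1.17 (Unigene0019021), 0.865 (Unigene0021248) and 0.609 (Unigene0020034), and each interval included 1. The second S-adenosylmethionine synthetase unigene (Unigene0032272, 304 bases) had 443 and 835 reads, 1.77-fold higher in the heat-shock-labelled library (1.58 to 1.99).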
